A study of Mus musculus with 8 samples.

Results

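The embryonic and adult globins are the protein chains of haemoglobin, and 6 of their genes are named on the array used here. Every non-control probe that the array files name Hba-a1, Hba-x, Hbb-b1, Hbb-b2, Hbb-bh1 or Hbb-y was taken, which gave 6 of the 34741 gene names on the array and 7 of its 55681 non-control probes. Hbb-y has 2 probes and the other 5 genes have 1 each. Of the 7 probes, 4 belong to embryonic chains (Hbb-y, Hbb-bh1 and Hba-x) and 3 to adult chains (Hba-a1, Hbb-b1 and Hbb-b2).

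The probes were read in 8 liver samples of newborn mice, which the series text calls biological replicates. The 4 knockout samples are from pups that had inherited from their mother a chromosome without the miR-379/miR-410 microRNA cluster. The 4 wild-type samples are from their littermates. All pups were on the C57BL/6J background, were taken by caesarean section at E19.5 and were killed 4 h later, and all livers were sampled from the large lobe as whole tissue. Total RNA was labelled with Cy3 and each sample was put on 1 single-colour Agilent array. The labels name no cell-type-specific driver for the deletion, and they do not give the sex of the pups.

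Haemoglobin is made of alpha-type and beta-type chains that each hold a heme. In the mouse, primitive red cells that form in the yolk sac use the embryonic chains Hba-x (zeta), Hbb-y (epsilon y) and Hbb-bh1 (beta h1), and the definitive red cells that form in the fetal liver use the adult chains. The liver is the main blood-forming organ of the late fetus and gives this task up to bone marrow and spleen around birth, so a newborn liver holds red cell precursors, and circulating red cells reach it with the blood. In bulk tissue, fewer red cells and less globin RNA per red cell cannot be told apart.

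The beta-type probes lie on chromosome 7 and the alpha-type probes on chromosome 11, at the mm9 positions that the array files give. Each probe is 60 bases long and has 1 spot per array. The first Hbb-y probe lies at chr7:111000448-111000507 and the second at chr7:111000268-111000327, the Hbb-bh1 probe at chr7:110990209-110990268 and the Hbb-b1 probe at chr7:110961105-110961164, all on the minus strand. The Hba-x probe lies at chr11:32177668-32177727 and the Hba-a1 probe at chr11:32183955-32184014, both on the plus strand. The files give no position for the Hbb-b2 probe. The exon or untranslated region that holds each probe was not given in the sources used here. The probes below show what was hybridised for an embryonic and an adult chain of each type, in lower case and 5′ to 3′.
Hbb-y, first probe: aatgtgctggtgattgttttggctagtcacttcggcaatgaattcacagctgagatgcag
Hba-x: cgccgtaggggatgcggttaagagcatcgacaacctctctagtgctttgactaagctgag
Hba-a1: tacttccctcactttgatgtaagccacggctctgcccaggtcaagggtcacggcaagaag
Hbb-b2: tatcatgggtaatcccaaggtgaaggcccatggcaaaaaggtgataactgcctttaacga

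Names of adult chains on the array need care. The accessions of the Hba-a1 probe include the transcripts of both Hba-a1 and Hba-a2, so its signal cannot be split between these copies. The accession of the Hbb-b1 probe belongs to the gene that RefSeq now calls Hbb-bt. The C57BL/6 strain carries the beta-globin haplotype with Hbb-bs and Hbb-bt in place of Hbb-b1 and Hbb-b2. Near-identical chains can hybridise to the same probe, so adult beta-chain signals are uncertain as to gene. A further probe that the files name Beta-s, at chr7:110976379-110976438 (mm9), belongs to Hbb-bs by its accession and is described beside the adult chains.

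Upstream sequences are shown as background for the chains whose promoters were at hand, and none was at hand for Hbb-bh1. Whether they bear on the levels in the livers was not tested. The sequences are from RefSeq on GRCm38.p6, a different build from that of the probes. They give the 150 bases before each start, in the direction of transcription. Of the 6 genes 3 were matched by name (Hbb-y, Hba-x and Hba-a1), and Hbb-bt and Hbb-bs were added. Capitals mark CACCC, the core of the site of the red cell factor Klf1, CCAAT, bound by NF-Y, and GATA, bound by Gata1, on either strand. ATTGG in capitals is CCAAT on the other strand.
Hbb-y, chr7:103853208-103853357, minus strand: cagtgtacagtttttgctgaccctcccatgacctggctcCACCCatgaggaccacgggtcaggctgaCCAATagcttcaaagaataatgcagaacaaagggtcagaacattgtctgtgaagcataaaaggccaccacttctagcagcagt
Hba-x, chr11:32276450-32276599, plus strand: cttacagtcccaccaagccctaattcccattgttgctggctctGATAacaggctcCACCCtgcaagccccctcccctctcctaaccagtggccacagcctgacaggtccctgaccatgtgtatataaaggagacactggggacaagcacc
Hba-a1, chr11:32283522-32283671, plus strand: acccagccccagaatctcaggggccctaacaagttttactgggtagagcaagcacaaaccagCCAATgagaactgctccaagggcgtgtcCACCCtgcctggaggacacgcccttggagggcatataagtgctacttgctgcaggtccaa
Hbb-bt, chr7:103813924-103814073, minus strand: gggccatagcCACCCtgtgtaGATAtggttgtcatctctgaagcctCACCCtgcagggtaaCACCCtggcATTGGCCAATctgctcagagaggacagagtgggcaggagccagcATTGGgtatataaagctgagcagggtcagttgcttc
Hbb-bs, chr7:103827929-103828078, minus strand: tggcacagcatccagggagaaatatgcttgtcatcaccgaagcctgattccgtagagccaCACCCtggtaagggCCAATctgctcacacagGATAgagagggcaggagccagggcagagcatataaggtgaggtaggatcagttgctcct

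All 5 windows held CACCC, which 37.4% of 32851 promoter windows of the same length hold on either strand. The motif began 111 bases before the start in Hbb-y, 95 bases in Hba-x, 60 bases in Hba-a1 and 90 bases in Hbb-bs, and stood at 140, 104 and 89 bases in Hbb-bt. CCAAT was found in Hbb-y, Hba-a1, Hbb-bt and Hbb-bs and not in the Hba-x window, against 24.5% of all windows. GATA was found in Hba-x, Hbb-bt and Hbb-bs and not in the windows of Hbb-y and Hba-a1, against 35.7% of all windows. These matches are letters in a window and say nothing of binding.

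On each array 58.6% to 66.2% of spots were well above background, and none was saturated. After filtering, 33778 probes and 23547 genes were tested with limma. Levels are log2 processed signals minus the 75th percentile of the array, differences are knockout minus wild-type on that log2 scale with their standard error (SE), and adjusted p-values are Benjamini-Hochberg adjusted over all probes or genes tested. Precision is limited by how few arrays there are: the 95% interval of a probe's difference reached 0.27 to either side in the median. Mirg, a noncoding RNA of the domain that holds the deleted cluster, checked the labels and stood at -0.54 ± 0.33 in knockout and 2.16 ± 0.06 in wild-type livers (SD, n = 4 arrays each), a difference of -2.70 (limma adjusted p = 0.000327). Replicate 4 of each group was fitted as a weighted sum of the other 3 arrays of its group. The weights were 0.14, 0.24 and 0.62 for knockout 1 to 3 and 0.08, 0.36 and 0.55 for wild-type 1 to 3. Observed minus fitted globin levels ran from -0.09 to 0.25. The other replicates were not fitted in this way, so the fit cannot tell whether replicate 4 is independent. Its independence was not shown, and without it p-values from 8 arrays would be too small. Values from the 6 other arrays are given beside the globin results. Xist, made from the inactive X chromosome of females, was well above background in knockout 1, 2 and 4 and on no wild-type array, and the Y-linked Ddx3y in knockout 3 and 4 and wild-type 1, 2 and 4. All knockout arrays lay in 1 column of the slide and all wild-type arrays in the next, and these columns cannot be told apart from genotype.

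None of the 7 globin probes passed the test between knockout and wild-type livers (limma, adjusted p under 0.05), against 0.216% of all probes tested. At an unadjusted p under 0.05, 1 globin probe differed, that of Hbb-bh1, against 12.7% of all probes. Hbb-y and Hba-x varied up to 4.62-fold and 5.02-fold between livers of the knockout group, while the adult chains gave bright signals that varied 1.20-fold to 1.64-fold over all 8 livers.

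**Figure D1:**
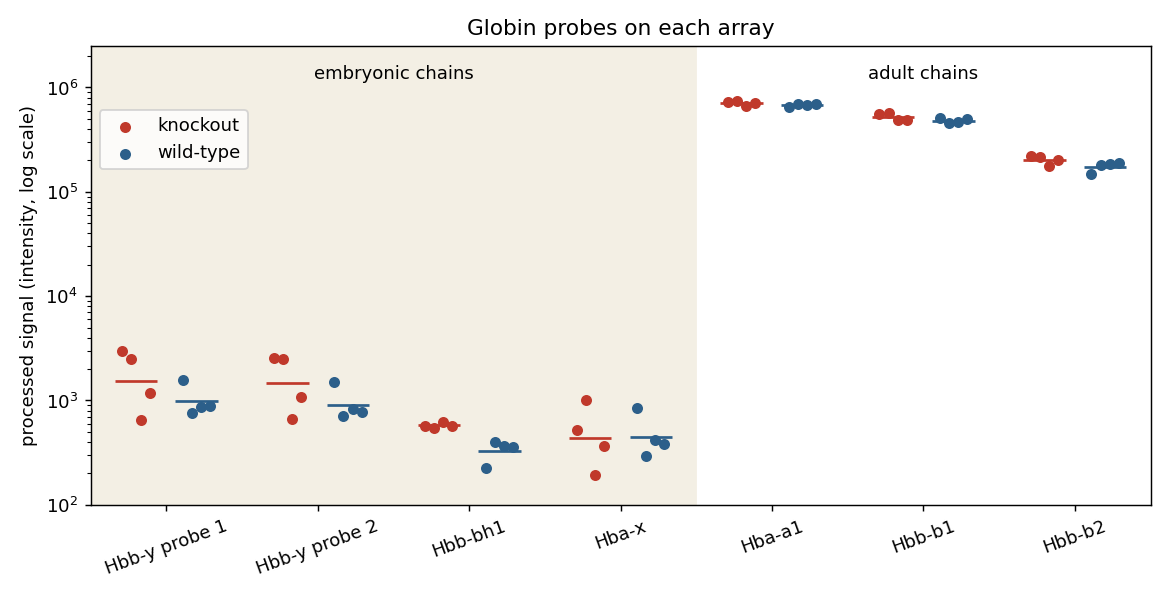
Processed signal of each globin probe (vertical log axis, intensity) on the 4 knockout arrays, drawn left, and the 4 wild-type arrays, drawn right, with points in replicate order 1 to 4 and lines at the mean of the log values. The embryonic probes lie between 193 and 2972 and the adult probes between 146987 and 742222, and probes differ in labelling and binding, so heights of different probes are not RNA amounts.

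Hbb-y, the epsilon-type embryonic beta chain, was read by 2 probes. The first had a processed signal of 2972, 2507, 648 and 1173 in knockout livers 1 to 4, and of 1562, 754, 873 and 892 in wild-type livers 1 to 4. Knockout 1 and 2 were the highest of the 8 livers and knockout 3 the lowest, so the groups overlapped and the wild-type livers lay inside the range of the knockout livers. Within the knockout group the first probe was 4.62-fold higher in knockout 1 than in knockout 3. Its level was 1.40 ± 1.00 in knockout and 0.82 ± 0.31 in wild-type livers (SD, n = 4 each). The difference was 0.57 (SE 0.44, 95% interval -0.44 to 1.59, limma adjusted p = 0.602, two-sided exact permutation p = 0.343).

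The second Hbb-y probe had a signal of 2580, 2523, 666 and 1085 in knockout livers 1 to 4, and of 1506, 710, 828 and 774 in wild-type livers 1 to 4. The order of the livers at the top and bottom was that of the first probe. The log2 levels of both probes differed within an array by -0.040 to 0.20, with a median of 0.081, which is far less than the spread between livers. The second probe stood at 1.33 ± 0.93 in knockout and 0.72 ± 0.34 in wild-type livers (SD, n = 4 each), with a difference of 0.61 (SE 0.42, 95% interval -0.35 to 1.58, limma adjusted p = 0.564, two-sided exact permutation p = 0.286). On 6 arrays the first and second probe differed by 0.65 and 0.67 (limma adjusted p = 0.809 and 0.799), and 0.0326% of all probes passed there.

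Hba-x, the zeta chain and the embryonic partner of the alpha type, had a signal of 519, 1007, 193 and 367 in knockout livers 1 to 4, and of 845, 292, 422 and 386 in wild-type livers 1 to 4. Knockout 2 was the highest and knockout 3 the lowest of all 8 livers, so again the wild-type livers lay within the knockout range. Knockout 2 was 5.02-fold higher than knockout 3, and wild-type 1 was 2.29-fold higher than wild-type 2. The level of Hba-x was -0.42 ± 0.97 in knockout and -0.31 ± 0.50 in wild-type livers (SD, n = 4 each). The difference was -0.11 (SE 0.46, 95% interval -1.16 to 0.94, limma adjusted p = 0.934, two-sided exact permutation p = 0.914), and on 6 arrays it was -0.11 too. The interval leaves room for a change of about 1 log2 unit in either direction for Hba-x, and of up to 1.59 upwards for Hbb-y.

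Hbb-y and Hba-x ordered the livers in a like way. Knockout 1, knockout 2 and wild-type 1 held the top 3 places for both Hbb-y probes and for Hba-x, wild-type 2 was in place 7 for all 3 probes and knockout 3 in place 8. The spread within groups was large for the array: the pooled within-group SD was 0.74 and 0.70 for the Hbb-y probes, larger than for 98.6% and 98.3% of the probes tested, and 0.77 for Hba-x, larger than for 98.8%. By level, wild-type 1, in place 3 for Hbb-y and place 2 for Hba-x, was the lowest liver for all 3 adult chains. For Hbb-b1 this place came with the scaling. The unscaled Hbb-b1 signal of wild-type 1, 506349, was the highest of the wild-type livers. The 75th percentile subtracted from wild-type 1 (643.7 before log2) was the highest of the 8 arrays. As a description, the genes outside the globins whose levels over the 8 arrays were most like the mean of Hbb-y and Hba-x were Armc8 (Pearson r = 0.989, Spearman rho = 0.952), Mios (r = 0.971, rho = 0.976), an unnamed intergenic transcript of chromosome 9 (r = 0.969, rho = 0.905), Vcam1 (r = 0.969, rho = 0.833) and Stard10 (r = 0.968, rho = 0.929). These were picked from 23541 genes over 8 arrays, after the values had been seen, and the closest of the 100 tested genes of the red cell lists described below was Igf2bp3 (r = 0.743).

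In the knockout group the levels of Xist were 1.72, 1.52, -6.80 and -0.14 in knockout 1 to 4, so the knockout livers high in Hbb-y were those with much Xist. In the wild-type group Xist ran from -7.78 to -6.89 (background level), and wild-type 1, whose Ddx3y level was 2.21, was the wild-type liver with the most Hbb-y. With the Xist level as a covariate the difference between genotypes in the first Hbb-y probe was -0.90 (limma adjusted p = 0.386) and in Hba-x -1.45 (limma adjusted p = 0.321). Knockout 4 had both Xist and Ddx3y well above background (levels -0.14 and 1.81), and wild-type 3 had neither (-7.78 and -7.67). These genes therefore do not give the sex of knockout 4 and wild-type 3. Knockout 4 is also a replicate 4 array, whose independence was not shown. The Xist level and genotype partly coincide on these arrays, and the part of sex in the embryonic chains was not tested beyond this fit. Leaving out 1 liver at a time gave differences of 0.26 to 0.99 for the first Hbb-y probe and of -0.49 to 0.29 for Hba-x, the ends being the fits without knockout 1 and without knockout 3 for Hbb-y, and without knockout 2 and without knockout 3 for Hba-x.

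**Figure D2:**
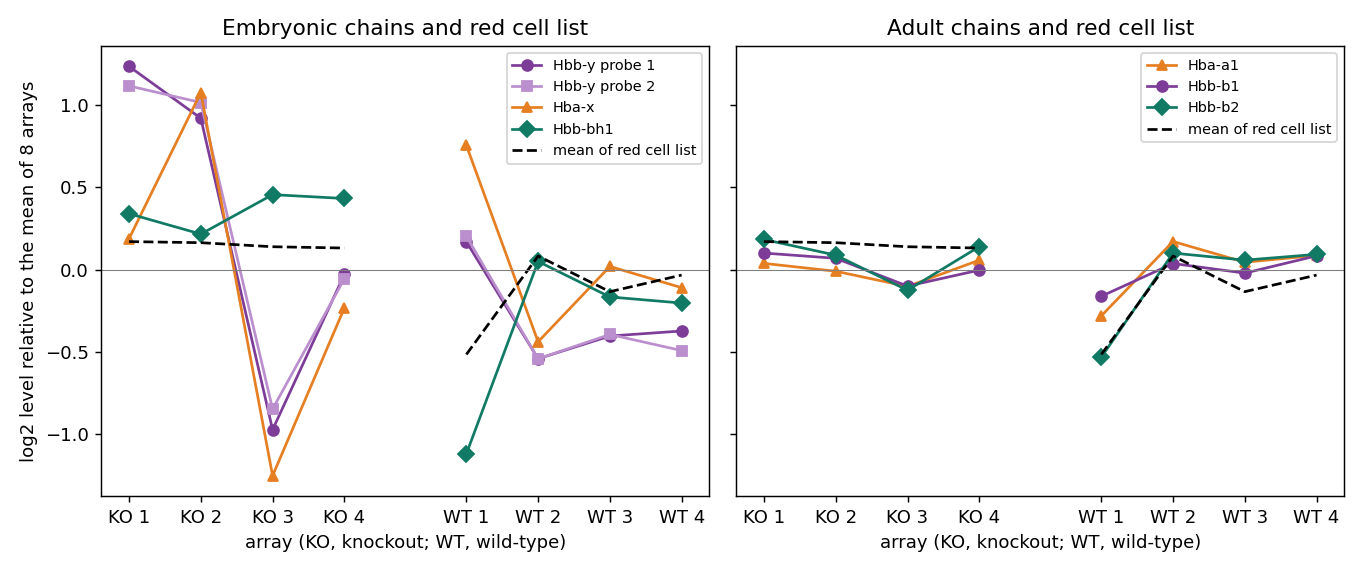
Log2 level of each globin probe relative to its mean over the 8 arrays (vertical axis), by array (KO, knockout, left of WT, wild-type), with embryonic chains in the left panel, adult chains in the right panel and the mean of the red cell membrane and enzyme list dashed in both. Lines join the points of a probe within a group and imply no order of replicates. Hbb-y and Hba-x are high in knockout 1 and 2 and wild-type 1 and lowest in knockout 3, Hbb-bh1 is above 0 in all 4 knockout livers, and the adult chains are lowest in wild-type 1.

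Hbb-bh1, the other embryonic beta chain, ordered the livers differently from Hbb-y and Hba-x. Its signal was 567, 546, 618 and 573 in knockout livers 1 to 4, and 227, 403, 365 and 356 in wild-type livers 1 to 4. Every knockout liver was higher than every wild-type liver, with knockout 3 on top and wild-type 1 lowest, and it was the only globin probe whose groups did not overlap, against 8.57% of all probes tested without overlap in either direction and 4.77% higher in knockout livers. The level was -0.03 ± 0.11 in knockout and -0.75 ± 0.52 in wild-type livers (SD, n = 4 each). The difference was 0.72 (SE 0.23, 95% interval 0.20 to 1.25) and did not pass over all probes (limma unadjusted p = 0.0130, adjusted p = 0.263, exact permutation p = 0.0286, two-sided, the least possible over 70 assignments). Among all probes tested 6.94% were higher in knockout livers at an unadjusted p under 0.05.

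The size of the Hbb-bh1 difference depended on wild-type 1, which was 2.25-fold below wild-type 2. Without wild-type 1 the difference was 0.47 (limma adjusted p = 0.121), and without wild-type 1 and both replicate 4 arrays it was 0.40 (limma adjusted p = 0.699). On the 6 arrays without replicate 4 it was 0.75 (SE 0.30, limma adjusted p = 0.698), and the exact permutation p of 0.1 was the least possible over 20 assignments. The levels of Hbb-bh1 lay between -0.17 and 0.07 around the array's 75th percentile in knockout livers and between -1.505 and -0.336 in wild-type livers, and the scanner software gave its signal an error of about 10%. The genes most like Hbb-bh1 over the 8 arrays, picked in the same way after the values had been seen, were an unnamed probe (r = 0.996, rho = 1.0), the histone gene H2bc4 (r = 0.992, rho = 0.976), Papln (r = 0.990, rho = 0.929), Synj1 (r = 0.988, rho = 0.952) and Clcn3 (r = 0.988, rho = 0.905). Of the red cell lists Alad, the second enzyme of heme synthesis, was closest (r = 0.973). Both were lowest in wild-type 1. Within the knockout livers Alad was highest in knockout 1 (4.57) and lowest in knockout 3 (4.52), where Hbb-bh1 was highest.

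The adult chains differed between genotypes by at most 0.14 in mean level. Whether signals as bright as theirs still follow RNA amount in proportion was not tested. Hba-a1, the adult alpha chain, had a signal of 731450, 742222, 667815 and 702695 in knockout livers 1 to 4, and of 644451, 696456, 671685 and 691424 in wild-type livers 1 to 4. By mean signal, before processing, it was the brightest non-control probe on all 8 arrays. That mean signal was 576260.5 to 670291.9 against the scanner's saturation value of 778699. Its level was 10.24 ± 0.07 in knockout and 10.25 ± 0.20 in wild-type livers (SD, n = 4 each), a difference of -0.0094 (SE 0.11, 95% interval -0.25 to 0.23, limma adjusted p = 0.976).

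Hbb-b1, an adult beta chain, had a signal of 552694, 567003, 483891 and 487497 in knockout livers 1 to 4, and of 506349, 459283, 464209 and 499297 in wild-type livers 1 to 4. The groups overlapped, and the whole range over the 8 levels was 1.20-fold, the narrowest among the globin probes. Its level was 9.80 ± 0.09 in knockout and 9.77 ± 0.11 in wild-type livers (SD, n = 4 each), a difference of 0.032 (SE 0.08, 95% interval -0.16 to 0.22, limma adjusted p = 0.891). Its within-group SD of 0.10 was larger than that of 17.2% of the probes tested.

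Hbb-b2, the second adult beta chain by name, had a signal of 219539, 215565, 178389 and 201854 in knockout livers 1 to 4, and of 146987, 180037, 183926 and 188480 in wild-type livers 1 to 4. Wild-type 1 was the lowest liver and the other 3 wild-type livers lay within the knockout range. Its level was 8.44 ± 0.14 in knockout and 8.30 ± 0.31 in wild-type livers (SD, n = 4 each), with a difference of 0.14 (SE 0.15, 95% interval -0.21 to 0.49, limma adjusted p = 0.714). Without wild-type 1 the difference was -0.012.

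The Beta-s probe, which is no member by name but reads a chain of this strain, had its lowest value in the same liver as Hbb-b2. Its signal was 117781, 129708, 116427 and 110015 in knockout livers 1 to 4, and 76999, 115684, 109481 and 108680 in wild-type livers 1 to 4. The other 7 livers lay between 108680 and 129708, and the difference in level was 0.14 (SE 0.19, limma adjusted p = 0.772). On 6 arrays Hba-a1 differed by -0.0029, Hbb-b1 by 0.072 and Hbb-b2 by 0.17, and none passed (limma adjusted p = 0.998, 0.888 and 0.849).

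**Figure D3:**
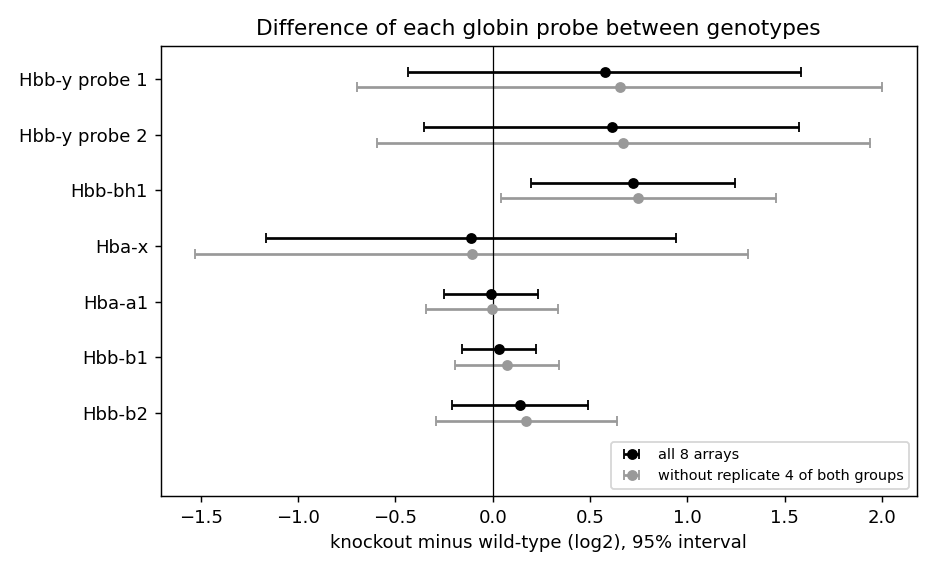
Difference in log2 level between knockout and wild-type livers for each globin probe (horizontal axis, knockout minus wild-type) with its 95% interval from limma, over all 8 arrays in black and without replicate 4 of both groups in grey. The intervals of Hbb-y and Hba-x span over 1 log2 unit, that of Hbb-bh1 runs from 0.20 to 1.25 with 8 arrays, and those of the adult chains lie around 0.

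Embryonic and adult chains were also set against each other within each array, which removes what both probes share on an array. The log2 signal of the embryonic probe minus that of the adult probe of the same type was taken for 3 pairs. Because probes differ in labelling and binding, only the change of this value between livers has a meaning, not its level. The adult probes used here varied little over the 8 levels, Hbb-b1 1.20-fold and Hba-a1 1.37-fold. The pair values therefore mostly repeat those of the embryonic probe and are not separate evidence.

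Hbb-bh1 minus Hbb-b1 was -9.93, -10.02, -9.61 and -9.73 in knockout livers 1 to 4, and -11.12, -10.15, -10.31 and -10.45 in wild-type livers 1 to 4. All knockout livers were above all wild-type livers. The means were -9.82 ± 0.19 in knockout and -10.51 ± 0.43 in wild-type livers (SD, n = 4 each), a difference of 0.69 (two-sided exact permutation p = 0.0286, and 0.0857 after adjustment over the 3 pairs). On 6 arrays the difference was 0.68 (exact permutation p = 0.1, the smallest possible), and without wild-type 1 it was 0.48 (exact permutation p = 0.0286).

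Hbb-y minus Hbb-b1 was -7.54, -7.82, -9.54 and -8.70 in knockout livers 1 to 4, and -8.34, -9.25, -9.05 and -9.13 in wild-type livers 1 to 4. Its difference of 0.54 was within the spread of the livers (two-sided exact permutation p = 0.286, and 0.429 after adjustment over the 3 pairs). Hba-x minus Hba-a1 was -10.46, -9.53, -11.76 and -10.90 in knockout livers 1 to 4, and -9.57, -11.22, -10.64 and -10.81 in wild-type livers 1 to 4. Its difference was -0.10 (two-sided exact permutation p = 0.886, also after adjustment). Its sign depended on single livers, with 0.26 without knockout 3 and 0.23 without wild-type 1.

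Among the other globins 9 genes were listed and 5 were tested. None passed (limma adjusted p under 0.05, against 0.217% of all genes tested), 1 was lower at an unadjusted p under 0.05, and the median difference was 0.046 against 0.027 over all genes. Hba-a2, the second adult alpha copy, stood at 9.68 ± 0.06 in knockout and 9.73 ± 0.11 in wild-type livers (difference -0.041, SE 0.08). The theta-like genes Hbq1a and Hbq1b differed by 0.34 and 0.29 (limma adjusted p = 0.456 and 0.519), with wild-type 1 lowest for both. Hbb-bh2, a beta-like gene of the locus, differed by 0.046 (SE 0.10) on a probe to which the files give no position. Cygb, a globin of stellate cells and fibroblasts rather than red cells, was the one lower at an unadjusted p, at 1.67 ± 0.23 in knockout and 2.00 ± 0.13 in wild-type livers (difference -0.33, SE 0.13, limma adjusted p = 0.322). All 11 stellate and fibroblast markers tested had lower means in knockout livers, with a median of -0.26. Of these, 0 were called and 8 were lower at an unadjusted p under 0.05. Over all genes 6.48% were lower at that unadjusted p and 56.5% had higher means. Whether Cygb follows these markers was not tested.

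The regulators of globin genes were followed with 38 listed genes, all of them tested. None passed the test, 30 had higher means in knockout livers, 2 were higher and 2 lower at an unadjusted p under 0.05, and the median difference was 0.11. Over all genes 56.5% had higher means in knockout livers, 6.83% were higher and 6.48% lower at that unadjusted p. Igf2bp1, an RNA-binding protein of fetal tissues that raises fetal globin in human red cells, stood at -0.60 ± 0.16 in knockout and -0.97 ± 0.06 in wild-type livers (difference 0.38, SE 0.09, limma adjusted p = 0.148), with no overlap, against 4.72% of all genes higher without overlap. Bach1, a heme-sensing repressor, differed by 0.32 (SE 0.12), Gata1, the leading red cell factor, by 0.20 (SE 0.09) and Dnmt1, the maintenance DNA methyltransferase, by 0.16 (SE 0.08). Nfix and Nfia, nuclear factor I proteins that act in blood precursors, had lower means, with differences of -0.40 (SE 0.10, limma adjusted p = 0.174) and -0.33 (SE 0.11, limma adjusted p = 0.271).

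Heme synthesis and iron supply had 22 listed genes, all tested and all with higher means in knockout livers. None passed, and 7 were higher and 0 lower at an unadjusted p under 0.05, against 6.83% and 6.48% of all genes. Means were higher in knockout livers for 56.5% of all genes. The median difference of the list was 0.24, with 0.27 on 6 arrays and 0.15 without wild-type 1. Tmem14c, a mitochondrial carrier of heme precursors, stood at 4.17 ± 0.15 in knockout and 3.79 ± 0.04 in wild-type livers (difference 0.38, SE 0.09, limma adjusted p = 0.136). The transferrin receptor Tfrc differed by 0.44 (SE 0.15), the iron transporter Slc11a2 by 0.33 (SE 0.11), and the heme enzyme Alad by 0.24 (SE 0.09). The adjusted p of these 4 genes ran from 0.136 to 0.326 (limma).

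Red cell membrane proteins and enzymes had 35 listed genes, of which 33 had higher means in knockout livers. Over all genes 56.5% had higher means. None of the list passed, and 10 were higher and 1 lower at an unadjusted p under 0.05, against 6.83% and 6.48% of all genes. The median difference was 0.31, with 0.38 on 6 arrays and 0.17 without wild-type 1. The glucose transporter Slc2a1 stood at 5.49 ± 0.06 in knockout and 4.78 ± 0.41 in wild-type livers (difference 0.71, SE 0.18, limma adjusted p = 0.171). The membrane skeleton protein Epb42 differed by 0.48 (SE 0.14), the adhesion molecule Icam4 by 0.44 (SE 0.13), carbonic anhydrase Car2 by 0.40 (SE 0.11) and the phosphatase Acp5 by 0.31 (SE 0.10). Hemgn, a nuclear protein of red cell precursors, was the one lower at an unadjusted p, at 7.15 ± 0.15 in knockout and 7.42 ± 0.10 in wild-type livers (difference -0.27, SE 0.09, limma adjusted p = 0.268).

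**Figure D4:**
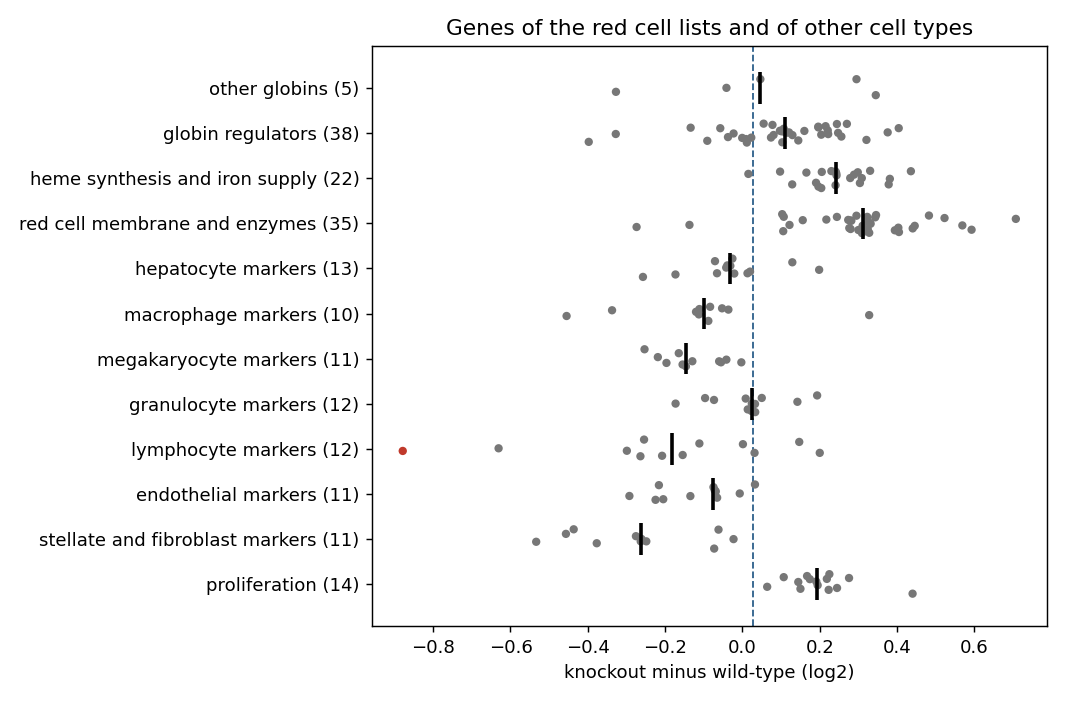
Knockout minus wild-type difference in log2 level (horizontal axis) of each tested gene, by list (number of tested genes in brackets), with black bars at the list medians and a dashed line at the median of all genes tested (0.027). The heme list (median 0.24) and the red cell membrane list (0.31) lie mostly above 0, and the red point in the lymphocyte list is Ms4a1, the only gene drawn that passed with 8 arrays. Pancreas markers are left out of the plot.

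The adult chains differed less between genotypes than the median of the other red cell genes did, which is given here as a description. By mean signal Hba-a1 held rank 1 and Hbb-b1 ranks 5 to 16 on the arrays. Whether probes this bright still follow RNA amount in proportion was not tested, so their small differences may understate changes in RNA. The mean of the red cell membrane list, relative to its mean over the 8 arrays, was 0.17, 0.16, 0.14 and 0.13 in knockout livers 1 to 4, and -0.52, 0.08, -0.13 and -0.03 in wild-type livers 1 to 4. All knockout livers were above all wild-type livers, and wild-type 1 was the lowest, as in the scaled levels of the adult chains and of Hbb-bh1. Taken relative to this list mean, Hba-a1 stood at -0.16 ± 0.07 in knockout and 0.16 ± 0.06 in wild-type livers, and Hbb-b1 at -0.13 ± 0.07 in knockout and 0.13 ± 0.16 in wild-type livers (SD, n = 4 each), without overlap for either. Because the list mean itself separates the groups, subtracting it moves probes with little difference to lower values in knockout livers, and 23.1% of all probes tested were lower without overlap on this measure. Hbb-bh1 relative to the list was 0.21 ± 0.12 in knockout and -0.21 ± 0.27 in wild-type livers, also without overlap. The gap was narrow, from 0.052 in knockout 2 to -0.032 in wild-type 3. Of all probes 0.228% were higher without overlap on this measure. Since the subtraction itself makes higher values rare, that share does not show how unusual Hbb-bh1 is. Hbb-b2, Hba-x and both Hbb-y probes overlapped on this measure, with differences of -0.16, -0.41, 0.27 and 0.31. None of these values has a test.

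Proliferation genes, which dividing red cell precursors use, had higher means in knockout livers for 14 of 14 tested, with a median of 0.19. Of these, 0 were called and 3 were higher at an unadjusted p under 0.05. Over all genes 56.5% had higher means and 6.83% were higher at that unadjusted p. The medians of the lists of other cell types were -0.031 for hepatocytes, -0.10 for macrophages, -0.15 for megakaryocytes, 0.024 for granulocytes, -0.18 for lymphocytes and -0.075 for endothelial cells. Of the genes in these 6 lists only Ms4a1, a B cell marker, passed (difference -0.88, SE 0.11, limma adjusted p = 0.0282), and on 6 arrays it did not (limma adjusted p = 0.390). The mean of the pancreas markers was 3.43 and 2.42 in wild-type 3 and 4, against -1.10 to -0.97 in knockout livers and -1.60 and -0.09 in wild-type 2 and 1. Without wild-type 3 and 4 the difference of Hbb-bh1 was 0.90 and that of the first Hbb-y probe 0.47. Their part in the globin values was otherwise not tested.

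The genes most like the mean of the adult probes over the 8 arrays were 2 unnamed intergenic transcripts (r = 0.986 and 0.982, rho = 0.976 for both), Zdhhc22 (r = 0.978, rho = 0.857), Galns (r = 0.978, rho = 0.762) and Cplx3 (r = 0.977, rho = 0.952). Of the red cell lists Ube2o, a ubiquitin enzyme of late red cell precursors, came closest (r = 0.935). For the mean of all 4 embryonic probes they included an unnamed transcript (r = 0.969, rho = 0.881), Gzmk (r = 0.969, rho = 0.905), Vps33b (r = 0.968, rho = 0.833) and Acot6 (r = 0.956, rho = 0.905), with Cbfa2t3 closest among the red cell lists (r = 0.666). These are the highest of 23541 correlations over 8 arrays that share a slide, and carry no p.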

How the data were processed

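Per the submitters' processing notes, the scanner output that the authors deposited for the 8 single-colour arrays came from Agilent Feature Extraction 10.10. It gives spot intensity on a linear scale, and the processed signal is background-subtracted per the file headers. The deposited value table of the series is on a log2 scale, holds 27084 probes and followed the log2 median signal (r from 0.99995 to 0.999994). Its normalization is not given in the sources used here, its column medians are 8.84 to 8.86, and it has no row for the Hba-x probe.

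Here, log2 of the processed signal was analysed after subtracting the array's 75th percentile (non-control probes only). Of the 55681 probes, 87 with a spot flagged as an outlier were left out. Probes well above background on at least 4 of 8 arrays were kept, and each gene was represented by its brightest kept probe. Names were updated through RefSeq accessions for 27235 probes. The genotypes were compared in R 4.3.3 with limma's lmFit and eBayes (version 3.58.1), first tested on simulated data; tests were two-sided and a Benjamini-Hochberg adjusted p under 0.05 counted as passed. Single values were compared with exact permutation tests over 70 assignments (Python 3.11.15). The series text calls the samples biological replicates. Replicate numbers did not pair the samples (correlations of deviations -0.10 to 0.05).

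The text names every globin probe, up to 6 genes with the smallest p of each red cell list, and the 5 genes most alike in pattern to the adult and to the embryonic probes. Ms4a1, Xist, Ddx3y, the Beta-s probe and the 5 genes most like Hbb-y with Hba-x and like Hbb-bh1 were chosen after their values were seen. Some genes that these rules pick are not reported here. The members and lists were chosen with earlier results of these data known. Alternatives tried were the deposited table and another normalization, background correction, signal column, filter, probe, variance model, replicate block, Xist as a covariate and leaving out arrays. The fit without wild-type 1 and both replicate 4 arrays was added after seeing the data.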

Additional observations from a re-analysis of the deposited data

Results flagged for a closer look

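Of 96 groups of 4 arrays checked, 5 held 1 array that stood apart from the rest. By chance about 1 in 20 groups would. For Hbb-b2, wild-type 1 stood at 7.84 while the other wild-type livers lay between 8.42 and 8.47. For Hbq1a, wild-type 1 stood at 0.27 against 0.99 to 1.10, and for Alad at 4.04 against 4.37 to 4.41. In the mean of the globin regulators, knockout 1 stood at 0.0059 against 0.064 to 0.066 in the other knockout livers. In the mean of endothelial markers, wild-type 1 stood at 0.26 against -0.013 to 0.0036 in the other wild-type livers.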

How the results depend on the processing

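No globin probe and no red cell gene passed under any of the 21 alternatives, which tested 7 probes and 100 genes each, except the deposited table with 6 and 97. The Hba-a1 difference was -2.9e-15 with normexp and quantile normalization and -2.8e-16 in the deposited table. Quantile normalization gives the brightest probe of every array the same value. Values this equal could not be called, so these 2 fits say nothing about Hba-a1. At an unadjusted p under 0.05, 1 to 3 globin probes were higher and 0 lower, except with Xist as a covariate (0 higher, 2 lower). Of the 100 genes of the red cell lists, which include Cygb, 6 to 41 were higher and 0 to 6 lower. The 41 came without wild-type 2 and the 6 higher without wild-type 1 and both replicate 4 arrays. The main fit gave 19 higher and 4 lower, against 6.83% and 6.48% of all genes. The shares of all genes under each alternative are not reported here. The difference in Hbb-bh1 minus Hbb-b1 kept its direction but its exact permutation p rose with the replicate block (0.69, p = 0.125), without replicate 4 of both groups (0.68, p = 0.1), without wild-type 3 and 4 (0.82, p = 0.0667) and without wild-type 1 and both replicate 4 arrays (0.38, p = 0.2). None of these designs can reach 0.05. Without 1 array at a time it was 0.48 to 0.81, with an exact permutation p = 0.0571 whenever a knockout liver was left out. Hba-x minus Hba-a1 was -0.48 to 0.26 without 1 array at a time, and 0.35 without wild-type 1 and both replicate 4 arrays. The replicate block gave 0 globin probes called, as without it, and changed no difference.

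The signs of small differences turned in some fits. With Xist as a covariate the differences were -0.90 and -0.74 for the Hbb-y probes, -0.12 for Hbb-b1 and -0.085 for Hbb-b2. Hba-x was -0.49 to 0.29 without 1 array at a time and 0.21 without wild-type 1 and both replicate 4 arrays. Hba-a1 was 0.024 with quantile normalization, 0.051 without wild-type 3 and 4, and -0.10 to 0.046 without 1 array at a time. Hbb-b1 was -0.017 to 0.071 and Hbb-b2 -0.012 to 0.21 without 1 array at a time, and Hbb-b2 was -0.030 without wild-type 1 and both replicate 4 arrays. Hba-a2 was 0.0017 with normexp and quantile normalization, 0.012 in the deposited table and 0.0087 without wild-type 3 and 4. Hbb-bh2 was -0.0060 with normexp and quantile normalization, -0.045 with normexp and the 75th percentile, -0.075 with the median signal, -0.056 in the deposited table, -0.085 without replicate 4, -0.050 without wild-type 3 and 4, -0.047 without wild-type 1 and both replicate 4 arrays, and -0.035 to 0.10 without 1 array at a time. The cause of these changes was not tested. The deposited table gave no value for Hba-x, and the dimmer probe could be tried for Hbb-y only (0.58 for Hbb-y minus Hbb-b1).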
